A study of Mus musculus with 12 samples.

Results

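NF-kB is a family of transcription factors held inactive by inhibitor proteins of the IkB family and released by signals from receptors such as CD40, and many of its own inhibitors are among its targets. In germinal centers, B cells divide in the dark zone, where the forkhead transcription factor Foxo1 is active, and compete in the light zone for T cell help delivered through CD40. The genes described here are 34 NF-kB pathway genes and CD40 targets, chosen by name: subunits, inhibitors, adaptors and kinases, receptors, ligands and survival genes. Of these, 31 had a probe set of their own among the 18194 genes named on the array, and 23 lay above the filter on dim signal (a level above the array's median on at least 3 arrays), out of 11458 genes that did. Nfkb1, Traf3 and Bcl2a1b had none in the annotation used and were not analysed here. Bcl3, Ikbke, Cd80, Cd83, Tnf, Lta, Ebi3 and Ccl22 were below the filter.

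RNA was measured on Affymetrix arrays in BL#19, a murine Burkitt lymphoma line edited with CRISPR/Cas9. By the labels, all groups carry the same line and differ in 2 forms of Foxo1, a wild-type form (wt) and one with the T24P substitution (mt). This substitution replaces a residue that AKT phosphorylates to send Foxo1 out of the nucleus. The genotypes were wt-/mt- (neither form), wt-/mt+ (T24P alone), wt+/mt- (wild type alone) and wt+/mt+ (both), with 3 arrays each. 1 label field calls the samples germinal center B cells, and the others name the lymphoma line. No label gives the clones or cultures behind a genotype. The p-values therefore reflect array-to-array spread within these samples, of which the technical part is not known. Within wt-/mt- the arrays also differed over whole chromosomes. The median of chromosome 12 relative to the wt+/mt+ mean was -0.66, 0.03 and -0.04 on replicates 1, 2 and 3. The source of this was not tested, and whether a genotype is 1 clone or several is not given.

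Foxo1 itself was read first. Its levels were 10.23, 9.39 and 10.34 (log2) in wt-/mt-, 11.57, 11.16 and 11.64 in wt-/mt+, 12.10, 11.92 and 11.59 in wt+/mt-, and 11.56, 11.63 and 11.72 in wt+/mt+. The wt-/mt- arrays were the 3 lowest, and Foxo1 fell by 1.65 against wt+/mt+ (SE 0.23, limma adjusted p = 0.00122). The position of the edits relative to the probes is not given in the sources used here, and the probe set does not separate the wild-type form from the mutant form. All 9 B cell markers on the array and all 9 germinal center markers were above the filter. The summed level of the B cell list (log2 of the summed linear values) lay between 15.81 and 16.14 in wt-/mt- and between 16.42 and 16.48 in wt+/mt+, and that of the germinal center list between 14.77 and 15.65 in wt-/mt- and between 15.60 and 15.70 in wt+/mt+. T cell markers were 3 of 10 above the filter, with a summed level of 9.08 to 9.16 in wt-/mt- and 8.94 to 9.07 in wt+/mt+, and macrophage and granulocyte markers 4 of 12, with 9.72 to 10.29 in wt-/mt- and 9.40 to 9.54 in wt+/mt+. The NK cell list summed higher, 8.70 to 12.02 in wt-/mt- and 11.19 to 11.34 in wt+/mt+, with Eomes at a mean of 11.07 in wt+/mt+. So did the stromal list, 12.58 to 13.55 and 12.95 to 13.04, with Vim at 12.92 in wt+/mt+. Array medians lay between 6.08 and 6.25. The signal ratio of the actin control probe sets, 3' over 5', was 2.17 and 1.71 (log2) on wt+/mt- replicates 1 and 2 and between 1.06 and 1.29 on the other arrays.

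Loss of both forms of Foxo1 changed 4 of the 23 genes, and not in 1 direction. Traf1, an adaptor of CD40 and other TNF receptors, and Cflar, an inhibitor of death receptor signalling, fell (log2 changes of -1.41 for both, SE 0.27 and 0.42), while the inhibitor genes Nfkbib and Tnip1 rose (0.56 and 0.75, SE 0.16 and 0.20). In wt-/mt- against wt+/mt+ these 4 calls (limma, Benjamini-Hochberg adjusted p under 0.05 over all 11458 genes) stand beside 22.1% of all genes called, 12.2% higher and 9.94% lower. With 1 weight per genotype, which allows for a wider spread in wt-/mt-, 3 of the 23 were called beside 7.56% of all genes. The median change of the 23 genes was 0.08, against 0.05 over all 11458 genes. In bulk RNA, fewer cells that express a gene and less of its RNA per cell cannot be told apart.

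Without the mutant form, loss of the wild-type form (wt-/mt- against wt+/mt-) changed 3 of the 23 genes, where 14.6% of all genes were called, 6.35% higher and 8.22% lower: Traf1, Cflar and Tnfrsf13b fell. Without the wild-type form, loss of the mutant form (wt-/mt- against wt-/mt+) also changed 3, where 20.8% of all genes were called, 9.75% higher and 11.1% lower: Traf1 and Cflar fell and Nfkbib rose. These 3 comparisons share the wt-/mt- arrays. With 1 form of Foxo1 still present, none of the 23 genes was called. Loss of the wild-type form with the mutant form present (wt-/mt+ against wt+/mt+) called 0 of 23 beside 0% of all genes, loss of the mutant form with the wild-type form present (wt+/mt- against wt+/mt+) 0 beside 0.183% (0.113% higher and 0.0698% lower), and the mutant form alone against the wild-type form alone (wt-/mt+ against wt+/mt-) 0 beside 0.0873% (0.0349% higher and 0.0524% lower). With 1 weight per genotype these 3 still called 0 of 23, while the shares of all genes were 0.166%, 8.29% and 7.29%. At an unadjusted p under 0.05, limma passed 0 members in each of the 3, beside 3.6%, 14.9% and 16.4% of all genes. At the same threshold 7 members passed for wt-/mt- against wt+/mt+ (38.2% of all genes), 6 against wt+/mt- (30.2%) and 6 against wt-/mt+ (35.5%). The F test over the 4 genotypes called Traf1, Cflar and Nfkbib, 3 of 23 beside 19.2% of all genes. Counted by arrays that did not overlap, 6 of the 23 genes separated wt-/mt- from wt+/mt+, beside 38.4% of all genes: Nfkbib, Tnip1 and Nfkb2 above, and Traf1, Cflar and Slamf1 below. The counts were 3 for wt-/mt- against wt+/mt- (25.7% of all genes), 5 for wt-/mt- against wt-/mt+ (35%), 7 for wt-/mt+ against wt+/mt+ (21.5%), 5 for wt+/mt- against wt+/mt+ (33.2%) and 4 for wt-/mt+ against wt+/mt- (31.8%). The plot of changes with their intervals shows the 3 comparisons that contain wt-/mt-.

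**Figure D1:**
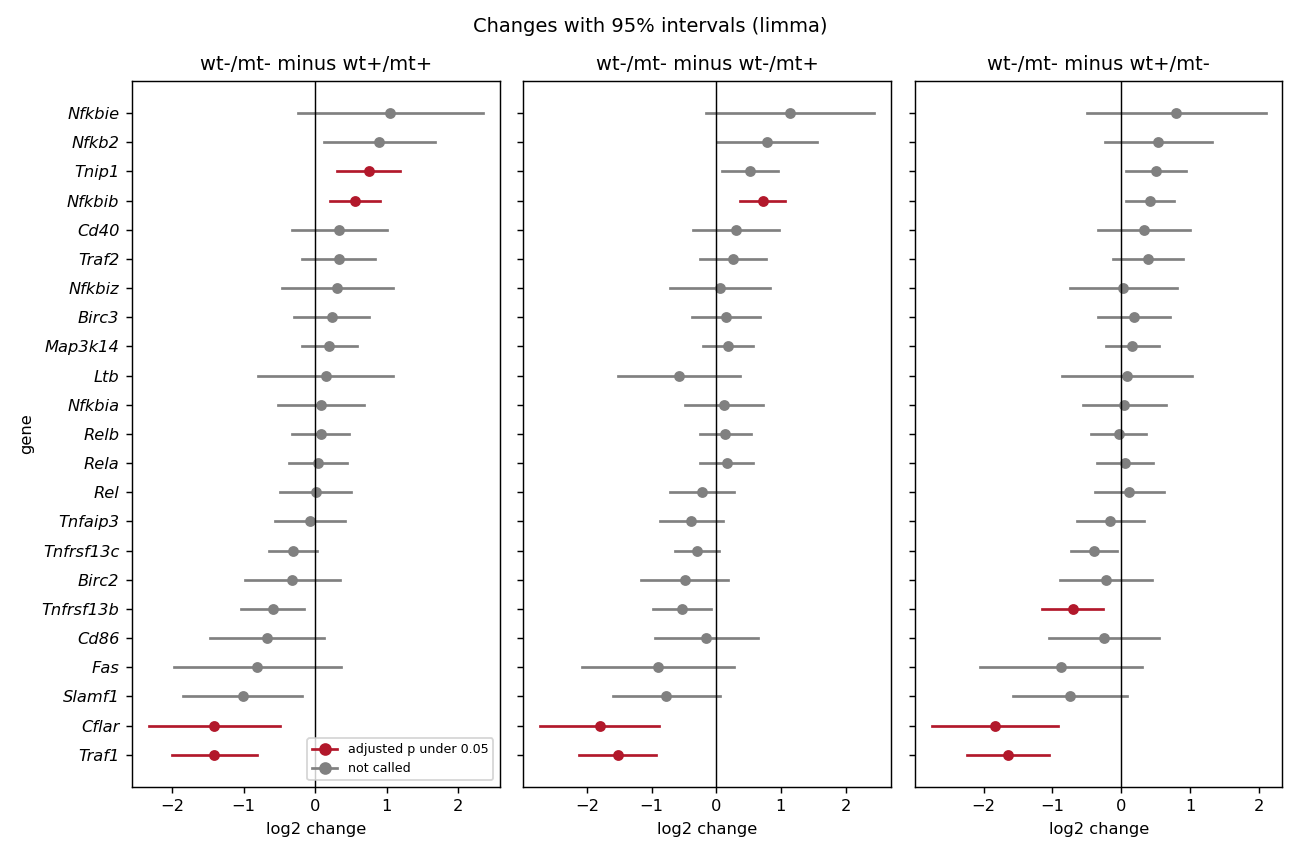
Each row is 1 of the 23 genes above the filter, each panel a comparison, and points and bars give the log2 change with its 95% interval (limma), red where the adjusted p is under 0.05. Traf1 and Cflar lie left of 0 with intervals clear of it in all 3 panels, at -1.41 and -1.41 in wt-/mt- minus wt+/mt+, and grey points are changes that were not called.

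The Rel family subunits, which bind DNA as dimers, showed no call in any comparison. Of 4 measured subunits the change after loss of both forms lay between 0.01 and 0.90. Rel, the c-Rel subunit prominent in lymphocytes, had levels of 7.84, 7.16 and 8.32 in wt-/mt-, 8.07, 7.86 and 8.05 in wt-/mt+, 7.61, 7.58 and 7.76 in wt+/mt-, and 7.88, 7.70 and 7.70 in wt+/mt+. The wt-/mt- arrays held both the lowest and the highest of the 12 values, and the mean change was 0.01 (SE 0.22, adjusted p = 0.982). Rela, the main activating subunit of the canonical pathway, read 10.21, 9.86 and 10.81 in wt-/mt-, 10.17, 10.07 and 10.16 in wt-/mt+, 10.28, 10.24 and 10.19 in wt+/mt-, and 10.31, 10.27 and 10.17 in wt+/mt+. Here too the wt-/mt- arrays lay on both sides of all others. Nfkb2, whose product is the precursor of the non-canonical subunit, was chosen after its values were seen. It read 10.29, 8.78 and 8.47 in wt-/mt-, 8.42, 8.52 and 8.26 in wt-/mt+, 8.64, 8.63 and 8.66 in wt+/mt-, and 8.11, 8.35 and 8.39 in wt+/mt+. All 3 wt-/mt- arrays exceeded the wt+/mt+ arrays, replicate 1 by far the most, and the change of 0.90 was not called (SE 0.35, adjusted p = 0.0880). Without wt-/mt- replicate 1 it was 0.34, and without replicate 3 it was 1.25 and called (adjusted p = 0.0196).

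Among the IkB family and feedback inhibitors, 2 of 6 genes above the filter rose after loss of both forms, where 12.2% of all genes were called higher, and neither call held under every alternative. The median change was 0.43 over the 6 and 0.05 over all genes. Nfkbib encodes IkB beta, which retains NF-kB dimers in the cytoplasm. Its levels were 8.31, 8.25 and 8.37 in wt-/mt-, 7.82, 7.56 and 7.40 in wt-/mt+, 7.73, 7.69 and 8.28 in wt+/mt-, and 7.69, 7.78 and 7.79 in wt+/mt+. The 3 wt-/mt- arrays were tightly grouped and above those of wt-/mt+ and wt+/mt+, and only wt+/mt- replicate 3 reached them. Nfkbib rose by 0.56 against wt+/mt+ (SE 0.16, adjusted p = 0.0288) and by 0.72 against wt-/mt+ (SE 0.16, adjusted p = 0.0103), and its change against wt+/mt- was 0.41 (SE 0.16, adjusted p = 0.103). With 1 weight per genotype, which allows for the wider spread in wt-/mt-, the first 2 were not called (adjusted p = 0.182 and 0.102). The call against wt+/mt+ also ended without any 1 wt+/mt+ array or wt-/mt- replicate 3 (adjusted p between 0.0518 and 0.0863), and with arrays centred on their medians (0.48, adjusted p = 0.0599). A dimmer probe set of Nfkbib, below the filter, changed by only 0.07 against wt+/mt+ and 0.09 against wt-/mt+. Tnip1 encodes ABIN1, a ubiquitin-binding partner of A20 that restrains NF-kB. It read 11.00, 10.36 and 11.36 in wt-/mt-, 10.36, 10.54 and 10.26 in wt-/mt+, 10.41, 10.43 and 10.38 in wt+/mt-, and 10.09, 10.17 and 10.21 in wt+/mt+. Replicates 1 and 3 of wt-/mt- stood above all others, while replicate 2 lay among them. It rose by 0.75 against wt+/mt+ (SE 0.20, adjusted p = 0.0229). That call ended without any 1 wt+/mt+ array (adjusted p between 0.0593 and 0.0702) and with each chromosome centred on each array (0.63, adjusted p = 0.0571). The changes of Tnip1 against wt-/mt+ and wt+/mt- were 0.52 and 0.50, and neither was called. Every wt-/mt+ and wt+/mt- array also lay above all wt+/mt+ arrays, with changes of 0.23 and 0.25 that were not called. A level above wt+/mt+ was therefore not limited to wt-/mt-.

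Nfkbia encodes IkB alpha, the inhibitor that NF-kB itself induces most rapidly. It read 13.17, 12.54 and 11.71 in wt-/mt-, 12.46, 12.38 and 12.21 in wt-/mt+, 12.42, 12.55 and 12.32 in wt+/mt-, and 12.31, 12.51 and 12.35 in wt+/mt+. Again wt-/mt- held the highest and the lowest array, so the mean change was 0.08 (SE 0.27, adjusted p = 0.857). Nfkbie, which encodes IkB epsilon and was chosen after its values were seen, read 10.21, 7.41 and 7.30 in wt-/mt-, 7.34, 7.15 and 7.00 in wt-/mt+, 7.83, 7.27 and 7.42 in wt+/mt-, and 7.15, 7.34 and 7.28 in wt+/mt+. A single wt-/mt- array stood apart, and the change of 1.05 (SE 0.59, adjusted p = 0.214) became 0.10 without it. The dimmer probe set of Nfkbie placed the same array 2.43 above the wt+/mt+ mean, against 2.95 by the brighter one. Nfkbiz and Tnfaip3, which encode the nuclear IkB zeta and the deubiquitinase A20, changed by 0.31 and -0.07 and were not called.

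Traf1 was the gene with the smallest adjusted p among the 23. The protein is itself a product of NF-kB activity and modulates signals from CD40 and TNF receptors. Its levels were 9.93, 9.10 and 8.70 in wt-/mt-, 10.81, 10.86 and 10.62 in wt-/mt+, 11.04, 11.07 and 10.56 in wt+/mt-, and 10.36, 10.84 and 10.77 in wt+/mt+. All 3 wt-/mt- arrays lay below the other 9, with replicate 1 nearest to them. Traf1 fell in all 3 comparisons, with -1.41 against wt+/mt+ (SE 0.27, adjusted p = 0.00551), -1.52 against wt-/mt+ (SE 0.27, adjusted p = 0.00357) and -1.65 against wt+/mt- (SE 0.27, adjusted p = 0.00372). Another probe set of Traf1 changed by -1.51, -1.31 and -1.41 in these comparisons. All 3 calls held without any 1 array. The call against wt+/mt- ended without wt+/mt- replicates 1 and 2 together (-1.32, adjusted p = 0.210), the arrays with the highest actin ratios, and with the actin ratio as a covariate (-1.37, adjusted p = 0.0797).

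The interaction asks whether losing the wild-type form has another effect without the mutant form (wt-/mt- against wt+/mt-) than with it (wt-/mt+ against wt+/mt+). It was called for Traf1, 1 of 23 genes beside 3.14% of all genes (0.838% higher and 2.3% lower), at -1.75 (SE 0.38, adjusted p = 0.0354). Traf1 changed by -1.65 without the mutant form and by 0.11 with it. The call ended without any 1 of 8 arrays (all of wt-/mt+ and wt+/mt+, and wt+/mt- replicates 1 and 2), where values lay between -1.85 and -1.61 and adjusted p up to 0.110. It also ended with the actin covariate (-1.52, adjusted p = 0.136) and with the mean over probe sets (-1.48, adjusted p = 0.131). Cflar had an interaction of -2.23 (SE 0.59, adjusted p = 0.0712).

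The other adaptors, ligases and kinases were not called. Traf2, the adaptor that recruits the cIAP ligases to CD40, read 9.53, 8.33 and 9.23 in wt-/mt-, 8.76, 8.75 and 8.79 in wt-/mt+, 8.58, 8.60 and 8.74 in wt+/mt-, and 8.72, 8.68 and 8.70 in wt+/mt+, and was named after its values were seen. The 9 arrays with any form of Foxo1 spanned a narrow range, and wt-/mt- lay on both sides of it. The change against wt+/mt+ was 0.33 (adjusted p = 0.322), and it was 0.68 without wt-/mt- replicate 2 (adjusted p = 0.00216). Birc2 and Birc3, the cIAP ubiquitin ligases, changed by -0.32 and 0.23, and Map3k14, the NIK kinase of the non-canonical pathway, by 0.20. Birc2 was -0.72 and called without wt-/mt- replicate 1 (adjusted p = 0.0333).

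Of 6 receptors and costimulatory molecules above the filter, 5 had negative changes in wt-/mt- against wt+/mt+. Their median was -0.64, against 0.05 over all genes. In that comparison limma called 0 of the 6, beside 22.1% of all genes. At an unadjusted p under 0.05 limma passed 2 of the 6, beside 38.2% of all genes. Tnfrsf13b encodes TACI, a receptor for BAFF and APRIL. It read 10.76, 11.72 and 11.35 in wt-/mt-, 11.73, 11.86 and 11.81 in wt-/mt+, 12.18, 11.94 and 11.83 in wt+/mt-, and 11.72, 11.89 and 12.01 in wt+/mt+. It fell by 0.71 against wt+/mt- (SE 0.20, adjusted p = 0.0404). For 10 of the 12 arrays, leaving out that array removed the call (adjusted p between 0.0516 and 0.147), as did the actin covariate (-0.57, adjusted p = 0.340), 1 weight per genotype (adjusted p = 0.118) and testing with no filter (adjusted p = 0.0522). The change against wt+/mt+ was -0.59 (SE 0.20, adjusted p = 0.0562), and -0.71 and called with each chromosome centred (adjusted p = 0.0218). The B cell marker list, whose summed levels are given above, had 4 of 9 genes called lower in wt-/mt- than in wt+/mt+, beside 9.94% of all genes, and its part in this result was not tested.

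Cd40, the receptor itself, read 11.17, 9.62 and 10.26 in wt-/mt-, 10.16, 10.12 and 9.87 in wt-/mt+, 10.13, 10.19 and 9.75 in wt+/mt-, and 9.99, 10.17 and 9.88 in wt+/mt+. The highest and the lowest of the 12 arrays were both wt-/mt-, and the change was 0.34 (SE 0.30, adjusted p = 0.438). Cd86, a ligand of CD28 on T cells, read 8.27, 7.30 and 9.15 in wt-/mt-, 8.21, 8.66 and 8.31 in wt-/mt+, 8.77, 8.08 and 8.61 in wt+/mt-, and 8.94, 8.84 and 8.97 in wt+/mt+. Its change was -0.68 (SE 0.36, adjusted p = 0.196), and -1.13 without wt-/mt- replicate 3 (adjusted p = 0.0151). Fas, the death receptor, was chosen after its values were seen: it read 9.88, 7.96 and 7.08 in wt-/mt-, 8.79, 9.49 and 9.33 in wt-/mt+, 8.96, 9.51 and 9.06 in wt+/mt-, and 8.91, 9.13 and 9.30 in wt+/mt+. Replicate 1 of wt-/mt- was the highest of all arrays and replicates 2 and 3 were the lowest. Its change of -0.81 (SE 0.53, adjusted p = 0.292) was -1.59 without replicate 1 (adjusted p = 0.00315) and -0.20 without replicate 3. Slamf1, a homophilic receptor of the SLAM family, lay lower on all 3 wt-/mt- arrays than on any wt+/mt+ array, with a change of -1.02 that was not called (SE 0.38, adjusted p = 0.0744). Without wt+/mt- replicate 1, which narrows the shared spread, it was called (adjusted p = 0.00614).

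Cflar encodes cFLIP, which blocks caspase activation at Fas and related receptors. Its levels were 6.56, 8.63 and 8.47 in wt-/mt-, 9.69, 9.67 and 9.72 in wt-/mt+, 9.99, 9.61 and 9.57 in wt+/mt-, and 9.16, 9.44 and 9.30 in wt+/mt+. The 3 wt-/mt- arrays were the 3 lowest, and replicate 1 was lower than replicates 2 and 3. Cflar fell in the same 3 comparisons, with -1.41 against wt+/mt+ (SE 0.42, adjusted p = 0.0344), -1.80 against wt-/mt+ (SE 0.42, adjusted p = 0.0132) and -1.84 against wt+/mt- (SE 0.42, adjusted p = 0.0165). Against wt+/mt+ the change was -0.75 without wt-/mt- replicate 1 (adjusted p = 0.00398), and the call ended without any 1 of 6 arrays of other genotypes (adjusted p up to 0.103). It also ended with the actin ratio as a covariate (-1.37, adjusted p = 0.0578) and without wt+/mt- replicates 1 and 2 together (adjusted p = 0.0650). Against wt+/mt- it ended without wt+/mt- replicates 1 or 2 (adjusted p = 0.0683 and 0.0523), without both (adjusted p = 0.339) and with the covariate (adjusted p = 0.177). All 5 probe sets of Cflar had negative changes in wt-/mt- against wt+/mt+, between -1.41 and -0.42. Cflar lies on chromosome 1, whose 646 genes above the filter had a median of -0.31 on wt-/mt- replicate 1 relative to the wt+/mt+ mean. With each chromosome centred on each array, the change of Cflar against wt+/mt+ was -1.32 and still called (adjusted p = 0.0227).

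**Figure D2:**
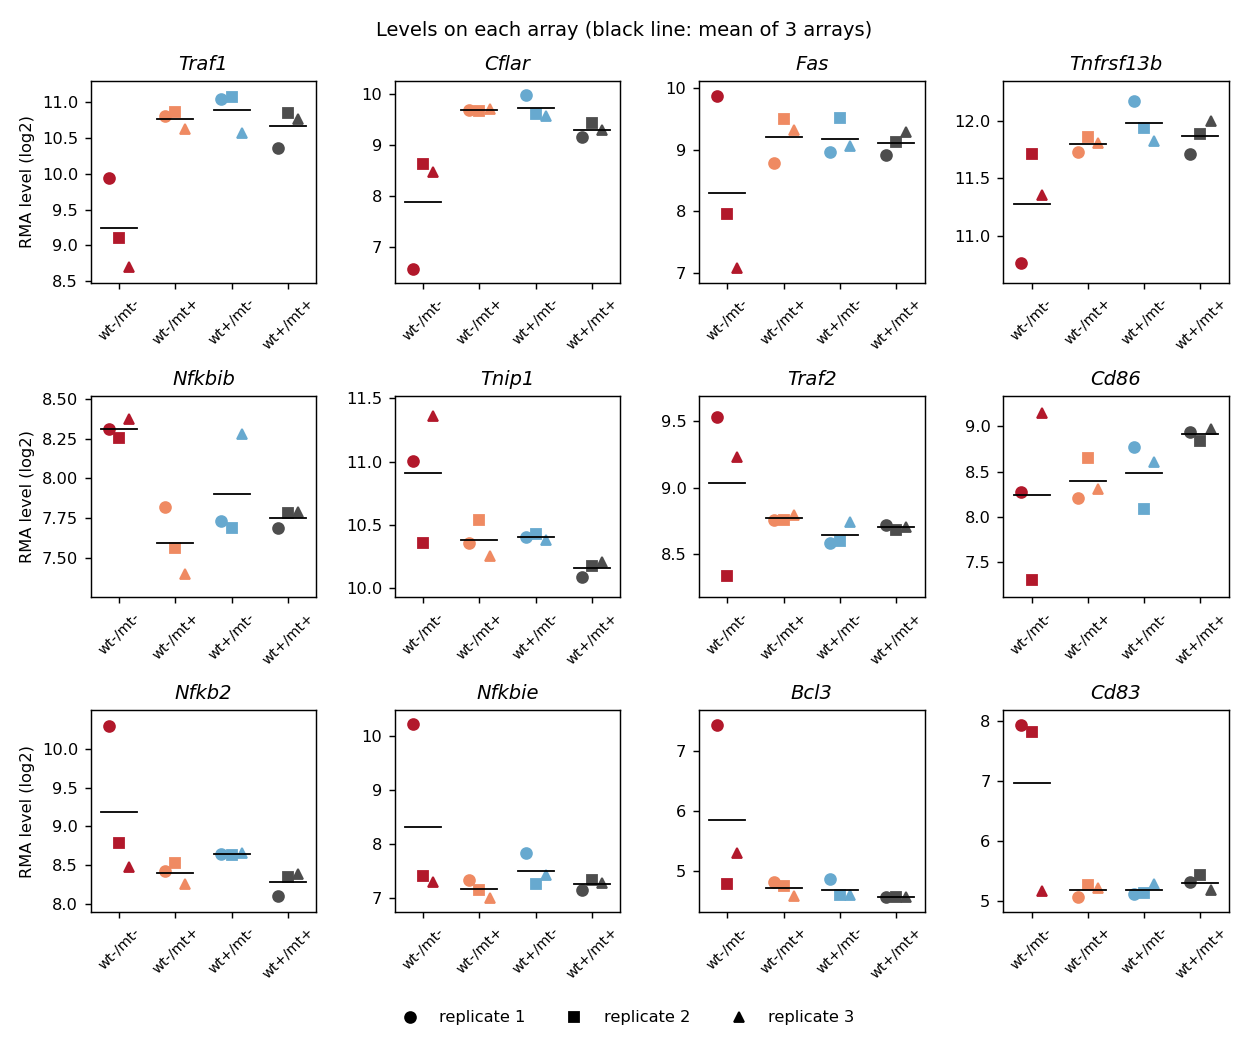
Points are RMA levels (log2) on each array for 12 genes, with a marker shape per replicate and a black line at the mean of 3 arrays, and each panel has its own axis that does not start at 0. Traf1 and Cflar are lowest on the 3 wt-/mt- arrays, whereas Nfkbie and Bcl3 are high on wt-/mt- replicate 1 alone, at 10.21 and 7.43, and Cd83 on replicates 1 and 2.

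Of the ligands, Ltb, which encodes lymphotoxin beta, was the 1 of 5 genes above the filter, and no genotype separated from the rest: its SD reached 0.75 in wt-/mt+ and 0.80 in wt+/mt+. Tnf, Ebi3 and Ccl22 spanned at most 0.601 over the 12 arrays. When all 18194 genes were tested with no filter, Lta (lymphotoxin alpha) was the 1 dim gene of 8 called, where 16.8% of all genes were called after loss of both forms. It read 5.36, 4.95 and 5.46 in wt-/mt-, 4.92, 4.69 and 4.85 in wt-/mt+, 5.03, 5.29 and 5.18 in wt+/mt-, and 4.67, 4.72 and 4.77 in wt+/mt+, and rose by 0.53 against wt+/mt+ (SE 0.13, adjusted p = 0.0195) and by 0.44 against wt-/mt+ (SE 0.13, adjusted p = 0.0473, where 14% of all genes were called). These levels lie below the array medians.

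The wider pattern in wt-/mt- was disagreement between its 3 arrays. The median SD of the 23 genes was 0.608 across the wt-/mt- arrays, where that of all 11458 genes was 0.261. It was 0.134 for wt-/mt+ (all genes 0.111), 0.180 for wt+/mt- (all genes 0.133) and 0.134 for wt+/mt+ (all genes 0.0952). Relative to the wt+/mt+ mean, the 23 genes had a median of 0.48 on wt-/mt- replicate 1, -0.17 on replicate 2 and -0.15 on replicate 3, while the medians over all genes were 0.05, 0.09 and 0.02. Replicate 1 was the highest of the 3 arrays for 14 of the 23 genes, against 31.3% of all genes. These values are a description of 3 arrays and carry no test.

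On that array the 23 genes ranged widely. Nfkbie was 2.95 above the wt+/mt+ mean, Nfkb2 2.00, Cd40 1.16, Birc3 0.93, Tnip1 0.85, Traf2 0.83 and Nfkbia 0.78. Rel at 0.07, Rela at -0.04 and Nfkbiz at -0.44 did not stand high there, and Cflar was at -2.74 and Tnfrsf13b at -1.11. Members more than 1 above that mean were 3 of 23 on replicate 1, beside 2.77% of all genes, and 1 of 23 on each of replicates 2 and 3, beside 4.24% and 4.40%. Members more than 1 below it were 2, 3 and 4 on replicates 1, 2 and 3, beside 5.22%, 3.63% and 7.13%. In either direction this gave 5, 4 and 5 of 23 genes, beside 7.99%, 7.87% and 11.5% of all genes. Chromosome medians also differed on these arrays. Chromosome 12, which carries Nfkbia, had a median of -0.66 on replicate 1 over 416 genes. On replicate 3, chromosome 16, which carries Cd86 and Nfkbiz, had one of 0.34, and chromosome 19, which carries Nfkb2, Rela and Fas, one of 0.26. On replicate 1 chromosome 17, which carries Nfkbie, stood at 0.07 and chromosome 19 at 0.12. Nfkbia was above the wt+/mt+ mean on the array where its chromosome was below it. Cd86 was at -0.64, -1.62 and 0.23 on replicates 1, 2 and 3, highest where chromosome 16 was raised. Nfkbiz, on the same chromosome, was at -0.44, 1.33 and 0.04. A chromosome median does not give the shift at a single gene, and the part of these shifts in the members' values was not tested.

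**Figure D3:**
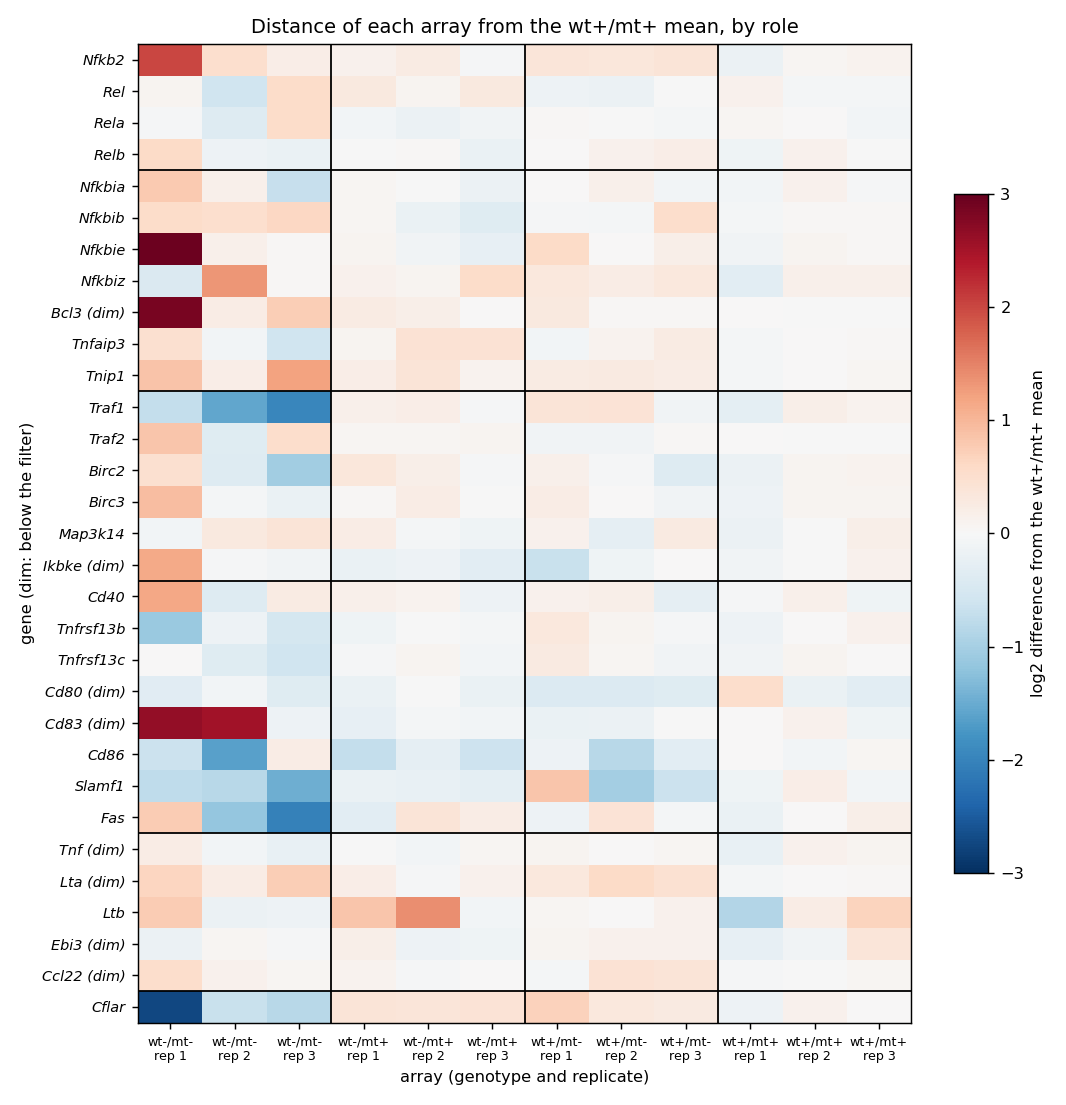
Colour gives the log2 difference of each array from the wt+/mt+ mean for the 31 genes on the array, grouped by role (lines), with genes below the filter marked dim. The left block, wt-/mt-, holds the strong colours, with Nfkbie at 2.95 and Bcl3 at 2.85 on replicate 1, and the 9 other arrays are mostly pale, with Ltb at 1.40 on wt-/mt+ replicate 2.

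Promoter windows of the members (RefSeq, GRCm38.p6, 250 bases before to 50 after the start) were searched on both strands for the kB consensus and for the forkhead motif GTAAACA. Windows were found for 28 of the 34 genes, not for Nfkb1, Relb, Nfkbiz, Cd40, Cd83 and Cd86. The kB consensus was present in 10 of these 28 genes, beside 5.14% of all genes with a window, and in 12 of their 32 windows, beside 4.51% of all 32851 windows. The forkhead motif was present in 1 gene, Ltb, beside 4.05% of all genes and 3.65% of windows. The genes were chosen as NF-kB pathway and target genes, so this share is a description. The windows of 3 genes that stood high on wt-/mt- replicate 1 are shown with kB matches in capitals, followed by those of the 2 genes that fell, which hold no kB match. They are Nfkb2 at chr19:46304487-46304786 (+ strand), the first of its 3 windows, Nfkbie at chr17:45555450-45555749 (+), Bcl3 at chr7:19822706-19823005 (-), Traf1 at chr2:34961723-34962022 (-) and Cflar at chr1:58711241-58711540 (+).
Nfkb2: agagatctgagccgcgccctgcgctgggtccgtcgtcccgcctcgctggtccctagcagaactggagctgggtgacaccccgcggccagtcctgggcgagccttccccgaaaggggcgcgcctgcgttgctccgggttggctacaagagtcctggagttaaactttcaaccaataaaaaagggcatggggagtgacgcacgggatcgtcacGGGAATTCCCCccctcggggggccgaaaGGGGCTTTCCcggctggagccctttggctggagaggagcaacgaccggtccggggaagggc
Nfkbie: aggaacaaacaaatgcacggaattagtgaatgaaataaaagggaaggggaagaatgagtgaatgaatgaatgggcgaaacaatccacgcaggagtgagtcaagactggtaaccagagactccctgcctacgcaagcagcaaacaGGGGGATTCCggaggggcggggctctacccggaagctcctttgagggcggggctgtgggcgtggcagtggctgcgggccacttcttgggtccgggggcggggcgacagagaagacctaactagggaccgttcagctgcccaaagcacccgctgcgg
Bcl3: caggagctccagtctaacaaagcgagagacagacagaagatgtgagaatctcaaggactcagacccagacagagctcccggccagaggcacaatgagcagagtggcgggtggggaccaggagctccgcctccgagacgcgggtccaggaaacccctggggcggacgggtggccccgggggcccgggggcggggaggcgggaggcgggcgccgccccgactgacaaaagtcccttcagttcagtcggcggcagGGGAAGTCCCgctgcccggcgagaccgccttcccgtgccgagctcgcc
Traf1: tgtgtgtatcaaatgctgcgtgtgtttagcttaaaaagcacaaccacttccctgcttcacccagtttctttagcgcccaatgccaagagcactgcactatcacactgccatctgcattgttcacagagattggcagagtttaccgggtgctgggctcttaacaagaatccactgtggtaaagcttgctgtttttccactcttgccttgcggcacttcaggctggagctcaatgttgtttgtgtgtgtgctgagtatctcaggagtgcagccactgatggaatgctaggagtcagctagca
Cflar: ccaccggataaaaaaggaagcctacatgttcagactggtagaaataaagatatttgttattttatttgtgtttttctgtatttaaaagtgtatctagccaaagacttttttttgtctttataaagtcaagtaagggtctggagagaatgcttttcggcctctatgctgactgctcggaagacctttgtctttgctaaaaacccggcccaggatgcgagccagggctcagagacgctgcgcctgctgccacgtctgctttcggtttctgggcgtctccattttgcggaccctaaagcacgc

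The matches begin 39 and 11 bases before the start in Nfkb2, 106 bases before it in Nfkbie, and at base 3 after it in Bcl3. Nfkbia and Tnip1 hold matches too, 29 and 58 bases before the start. Other genes high on wt-/mt- replicate 1 hold no match in their windows: Ikbke at 1.13, Birc3 at 0.93 and Traf2 at 0.83 above the wt+/mt+ mean. The windows shown therefore do not stand for all members. A match names letters in a window and not a bound site, and the absence of one in Traf1 and Cflar says nothing of sites elsewhere. Of the 9 measured genes with a match, 8 lay above the wt+/mt+ mean on wt-/mt- replicate 1, with a median of 0.78. Their medians were 0.14 on replicate 2 and 0.04 on replicate 3. That count was 9 of 9 on wt-/mt+ replicate 1 and 8 of 9 on wt+/mt- replicate 2, so it was not particular to wt-/mt- replicate 1. Of the 17 measured genes with a window and no match, 10 lay above that mean on wt-/mt- replicate 1. Their medians were 0.21, -0.15 and -0.22 on wt-/mt- replicates 1, 2 and 3. On the 6 arrays of wt-/mt+ and wt+/mt- the medians of both sets lay between -0.04 and 0.19. The division was made after the array values were known and is given with no test.

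**Figure D4:**
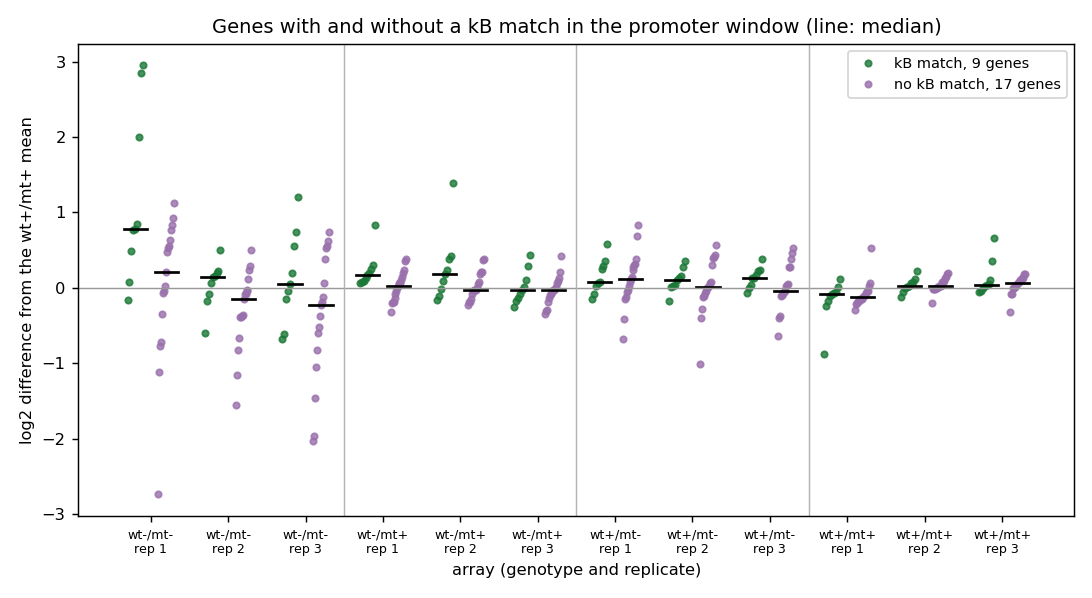
Points are genes with a kB match in the promoter window (green, 9 genes) or a window without one (purple, 17 genes), as the log2 difference of each array from the wt+/mt+ mean, with a black line at the median. On wt-/mt- replicate 1 the medians are 0.78 and 0.21, and on no other array does the median of the genes with a match exceed 0.19.

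Other genes of the pathway were read from 2 further lists. Of 45 upstream components, 38 were above the filter, and 9 were called after loss of both forms, 3 higher and 6 lower, 23.7% beside 22.1% of all genes. Nfkbid, which encodes a further nuclear IkB protein, rose by 1.34 (SE 0.32, adjusted p = 0.0156), with 10.46, 9.28 and 8.85 in wt-/mt- and 7.98, 8.16 and 8.42 in wt+/mt+, again highest on replicate 1. Traf4, an adaptor of the same family as Traf1, rose by 1.11 (SE 0.18, adjusted p = 0.00223), and Tnfrsf1a, a receptor for TNF, by 0.67 (SE 0.13, adjusted p = 0.00642). Tnip2, a relative of Tnip1, fell by 1.05 (SE 0.19, adjusted p = 0.00446). In wt-/mt- against wt+/mt-, limma called 2 of the 38, Traf4 higher and Tnip2 lower, beside 14.6% of all genes. Tnfrsf1a was not called there, and read 7.59, 7.64 and 7.86 in wt-/mt- and 7.82, 7.63 and 7.42 in wt+/mt-. Of 60 further induced targets, 37 were above the filter and 7 were called, 3 higher and 4 lower, 18.9% beside 22.1% of all genes. Pim1, a kinase that promotes survival, fell by 1.31 (SE 0.10, adjusted p = 4.26e-05), as did Nfatc1, a transcription factor downstream of calcium (-1.18, adjusted p = 0.0187), and Gadd45b, a stress-response gene (-1.06, adjusted p = 0.00159), while Casp4, an inflammatory caspase, rose by 0.81 (adjusted p = 0.0322). Pim1 read 9.16, 9.05 and 8.86 in wt-/mt- and 10.35, 10.31 and 10.32 in wt+/mt+, so that the 3 wt-/mt- arrays agreed for this gene. Of the 37, limma called 2 in wt-/mt- against wt+/mt-, Pim1 and Gadd45b, both lower, beside 14.6% of all genes. Nfatc1 was not called there, and read 8.33, 8.24 and 8.93 in wt-/mt- and 8.52, 8.75 and 9.69 in wt+/mt-.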

How the data were processed

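The deposited table holds 1 log2 value for each probe set and array. The submitters' processing notes name RMA, without a version. RMA makes the arrays' distributions alike, which hides any change common to most genes. The log base was taken from the range, 3.09 to 15.57. Per the labels' protocols, total RNA was labelled with biotin through an Affymetrix kit that primes from the 3' end.

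Of 45101 probe sets, GEO's platform annotation gave 1 gene to 34958, several to 932 (not named) and no entry for 9211. Symbols were updated through RefSeq, and 162 were kept as listed. Each gene was read from its probe set with the highest mean. Genes above the array's median (50th percentile) on at least 3 arrays were fitted with limma 3.58.1 in R 4.3.3 (1 mean per genotype over 12 arrays, eBayes). Calls used p-values adjusted by Benjamini-Hochberg, with a threshold of 0.05. The fit shares 1 spread per gene over genotypes although wt-/mt- spread more, which the fit with 1 weight per genotype allows for. It was tested on simulated data. Dim genes were read from the same fit with no filter over 18194 genes. Errors are limma's standard errors, and intervals are at 95%. The number of arrays limits the precision. No 2 arrays were identical (0 pairs). Sequences came from RefSeq windows, and tables and plots were made in Python 3.11.15 with pandas 2.3.3 and matplotlib 3.10.9.

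The 34 genes and the other lists were chosen with earlier results of these data known. Named genes are those called in any comparison, the central genes Rel, Rela, Nfkbia, Cd40 and Cd86, and, of the other lists, up to 4 rises and 4 falls by size after loss of both forms. Other genes given with values were chosen after their values were seen. Alternatives were array centring, quantile normalization, other dim filters, the mean over probe sets, 1 weight per genotype, an intensity trend, the actin ratio as a covariate and leaving out arrays. Centring per chromosome was chosen after seeing the data.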

Additional observations from a re-analysis of the deposited data

Results flagged for a closer look

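For Traf1, the change with loss of the wild-type form differed between cells without and with the mutant form: the interaction was -1.75 (log2, limma adjusted p = 0.0354), with -1.65 in wt-/mt- against wt+/mt- and 0.11 in wt-/mt+ against wt+/mt+. The call ended on leaving out any single wt-/mt+ or wt+/mt+ array, or wt+/mt- replicate 1 or 2. It also ended with the actin covariate (limma adjusted p = 0.136) and with the mean over probe sets (limma adjusted p = 0.131).

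Genes below the filter were outside the main tests, and 3 of them stood at least 1 above every wt+/mt+ array on some wt-/mt- array. Bcl3, which encodes a nuclear IkB protein, read 7.43, 4.80 and 5.31 in wt-/mt- and 4.58, 4.57 and 4.57 in wt+/mt+, so that wt-/mt- replicate 1 was 2.84 above the highest wt+/mt+ array. Ikbke, which encodes the IKK epsilon kinase, read 6.54, 5.39 and 5.30 in wt-/mt- and 5.31, 5.40 and 5.54 in wt+/mt+, a difference of 1.00 for wt-/mt- replicate 1. Cd83, a surface molecule of activated B cells, read 7.94, 7.82 and 5.16 in wt-/mt- and 5.31, 5.43 and 5.18 in wt+/mt+, differences of 2.51 and 2.39 for wt-/mt- replicates 1 and 2. With no filter, the mean changes were 1.27 for Bcl3 (adjusted p = 0.0934), 0.33 for Ikbke (adjusted p = 0.441) and 1.67 for Cd83 (adjusted p = 0.0584).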

How the results depend on the processing

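No value of the 23 genes reversed a called direction in any alternative run. Leaving out 1 array at a time, the number of the 23 genes called lay between 1 and 7 after loss of both forms (4 with all arrays), 1 and 5 after loss of the wild-type form without the mutant form (3), 3 and 7 after loss of the mutant form without the wild-type form (3), 0 and 4 for the interaction (1) and 1 and 6 for the F test (3), and stayed at 0 in the 3 comparisons among genotypes with Foxo1. The shares of all genes called moved too, between 10.9% and 27.4%, 5.8% and 22.1%, 9.76% and 26.1%, 1.03% and 8.68%, and 11.2% and 24.4% in the first 5. For loss of both forms the count was 1 (Traf1) without any 1 wt+/mt+ array (10.9% to 12.9% of all genes), 7 without wt-/mt- replicate 1 and 6 without replicate 2 (27.4% each). Loss of the wild-type form without the mutant form called 0 genes without wt+/mt- replicates 1 and 2 together (1.03% of all genes) and 0 with the actin ratio as a covariate (2.5%). The interaction called 0 in both, 0 with the mean over probe sets and 2 with 1 weight per genotype. Single genes under alternatives other than leaving out 1 array lost their call 17 times and gained one 6 times. Leaving out 1 array did so 33 and 29 times. Where such a call changed, the cause was not tested. No paired analysis was possible because the array numbers run on across genotypes and none is shared. Signal near the array's floor limits what can be read for the 8 dim genes.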

Other observations

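Markers of several cell types were called in wt-/mt- against wt+/mt+, where 9.94% of all genes were called lower and 12.2% higher. Of 9 B cell markers above the filter, 4 fell after loss of both forms (limma, adjusted p under 0.05 over 11458 genes): Blk, a kinase of B cell receptor signalling (log2 change -1.87, adjusted p = 0.0157), Cd79b, a signalling chain of that receptor (-0.96, adjusted p = 0.0170), Cd22, an inhibitory receptor (-0.84, adjusted p = 0.0272), and Ebf1, a transcription factor of B cell identity (-0.71, adjusted p = 0.00998). Of 9 germinal center markers, Bcl6, the repressor that defines the state, fell (-0.70, adjusted p = 0.0293), while Mef2b, a transcription factor upstream of Bcl6, rose by 2.16 (adjusted p = 0.00116). Gcsam also fell (adjusted p = 0.0202), with levels of 4.46 ± 0.29 in wt-/mt- against 6.46 ± 0.34 in wt+/mt+ (SD, n = 3 arrays each, limma). The single losses were also below wt+/mt+ in the mean, wt-/mt+ at 5.05 ± 1.40 and wt+/mt- at 4.19 ± 0.09, so a low level was not limited to wt-/mt-. Only the wt+/mt+ mean of Gcsam lay above the array medians, 6.08 to 6.25. Gcsam thus passed the dim filter mainly through the group against which it fell, and its other levels are dim. Of 5 plasma cell markers above the filter, Xbp1 (-1.33, adjusted p = 0.00630) and Mzb1 (-0.69, adjusted p = 0.00214) fell. Single markers of other cell types rose: Cd68 of 4 macrophage and granulocyte markers above the filter (1.93, adjusted p = 0.0276), Fscn1 of 4 dendritic cell markers (0.59, adjusted p = 0.00385) and Sparc of 3 stromal markers (0.36, adjusted p = 0.0192). In wt-/mt-, wt+/mt- and wt+/mt+ the means of Fscn1 were 8.04, 8.01 and 7.45, and those of Sparc 6.36, 6.36 and 6.00. Those of Cd68 were 8.04, 7.18 and 6.11, so higher levels of these markers were not limited to wt-/mt-. The means of Sparc and Cd68 lay above the array medians, 6.08 to 6.25, only in wt-/mt- and wt+/mt-. Both genes thus passed the dim filter mainly through groups where they were higher, and their wt+/mt+ levels are dim. Rgs13, a germinal center gene, had an SD of 4.57 over the 3 wt-/mt- arrays, against 0.03 in wt+/mt+, and its change of -4.38 was not called (adjusted p = 0.0737).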
